A study of Mus musculus with 9 samples.

Results

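The clustered histone genes of mouse embryonic stem cells (mESC) were followed across 3 media. They were chosen as the protein-coding genes whose symbol starts with Hist1h, Hist2h, Hist3h or Hist4h, which gave 64 of the 29069 genes in the table. By histone class, 6 encode the linker histone H1, 17 encode H2A, 18 encode H2B, 10 encode H3 and 13 encode H4. Of the 64 genes, 61 averaged more than 5 normalised counts per library and were tested among 18156 genes. The other genes, *Hist1h2ao*, *Hist1h2ap* and *Hist1h4m*, held at most 3, 3 and 12 normalised counts in any library.

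Total RNA was depleted of ribosomal RNA and sequenced from D3 cells, an established mESC line grown here without feeder cells and labelled as passages p5-p8. All cells spent 24 h in 1 of the media, with 3 libraries for each. Ground-state medium (GS) was the serum-free N2B27 formulation with the MEK inhibitor PD0325901 at 1 μM, the GSK-3 inhibitor CHIR99021 at 3 μM and leukaemia inhibitory factor (LIF) at 20 ng/mL. Differentiation medium (DM) was DMEM with 10% fetal bovine serum and without the inhibitors or LIF, and the third medium (NO) was DM with 250 μM of the nitric oxide donor DETA/NO. NO against DM therefore differs by the donor alone, whereas DM or NO against GS also changes serum, basal medium, inhibitors and LIF. A single line was used, and the labels do not say whether replicates came from separate cultures, so p-values measure only the spread between these libraries.

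Replication-dependent histone genes supply the core histones and the linker histone that package newly made DNA, and their mRNAs build up in S phase and are degraded when replication ends. Their mRNAs end in a conserved stem-loop in place of a poly(A) tail, so a library made from total RNA, rather than from poly(A) RNA, is needed to see them whole. The stem-loop is bound by SLBP, and transcription in the clusters is driven by NPAT, a substrate of cyclin E and CDK2. In bulk RNA, fewer cells in S phase and less histone mRNA per cell cannot be told apart.

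The stem-loop is the sequence these genes share that their choice did not use. It was searched in the annotated transcripts (GENCODE M21, GRCm38) as a 6-base stem that starts with GG, a loop of TTNN and the exact reverse complement of the stem. It was present in 41 of the 64 histone genes and in 110 of 21889 other protein-coding genes, which is 0.503%. All 11 H4 genes with a match had a different stem from the 30 H1, H2A, H2B and H3 genes with one. The set here shows each of the 3 stem types and all 5 classes in genes whose results are described, in transcript direction, with the stem-loop in capitals.
Hist1h1t (H1), chr13:23696525-23696540, plus strand: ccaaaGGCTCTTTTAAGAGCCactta
Hist1h2bk (H2B), chr13:22036300-22036315, plus strand: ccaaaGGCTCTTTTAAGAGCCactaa
Hist1h2bg (H2B), chr13:23571843-23571858, plus strand: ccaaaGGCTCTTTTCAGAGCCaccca
Hist1h2ac (H2A), chr13:23683477-23683492, minus strand: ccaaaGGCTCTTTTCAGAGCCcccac
Hist2h2ac (H2A), chr3:96220418-96220433, minus strand: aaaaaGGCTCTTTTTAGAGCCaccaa
Hist1h3d (H3), chr13:23576244-23576259, plus strand: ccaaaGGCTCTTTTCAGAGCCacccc
Hist1h4b (H4), chr13:23757366-23757381, plus strand: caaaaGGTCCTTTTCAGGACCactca
Hist1h4d (H4), chr13:23581950-23581965, plus strand: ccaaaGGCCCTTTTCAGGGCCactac

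The stem began GGCTCT in every H1, H2A, H2B and H3 match. Of the 11 H4 matches, 9 began GGCCCT and 2, *Hist1h4b* and *Hist1h4j*, began GGTCCT. The annotated transcript went on for 3 to 4884 bases after the stem-loop, and for more than 100 bases in 21 of the 41 genes, so that annotation holds longer transcripts as well as ones that end near the stem-loop. No match in the other 23 genes says only that these letters were not in the annotated transcript.

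Promoters of 57 of the genes were present in the RefSeq set (GRCm38.p6, 250 bases before to 50 after the start). The box CCAAT, on either strand, was found in all 6 H1, 15 H2A, 16 H2B and 8 H3 promoters, in 3 of 12 H4 promoters and in 37.9% of all 27025 promoters. TATAAA was present in 50% to 66.7% of each class and in 14.2% of all promoters. The octamer ATTTGCAT, the site of POU factors such as Oct1, was found in 7 H2A and 6 H2B promoters, in none of the H1, H3 and H4 promoters and in 1.8% of all promoters. Of the H2B genes with it, *Hist1h2ba*, *Hist1h2bb*, *Hist1h2bm* and *Hist2h2bb* had an adjusted p under 0.05 in no comparison. The octamer is given, in capitals, for the octamer-bearing H2B genes among those that fell.
Hist1h2bk, octamer at position -30 from the start: ttcactttATTTGCATacgaagtt
Hist1h2bg, octamer at position -59 from the start: agtcccttATTTGCATagaacctc

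Library totals, already scaled by the authors, ran from 18290445 to 20508679, and 14307523 to 27061091 assigned reads per library were estimated from the spacing of low values. The histone genes made up 0.554% to 2.075% of these totals. All 10 ES cell markers of the fixed list were measured in every medium. Their summed values ran from 95418 to 97617 in GS, 96344 to 107211 in DM and 56109 to 91975 in NO. At an adjusted p under 0.05, 4 of the 10 fell in NO against DM, *Utf1*, *Lin28a*, *Pou5f1* and *Sall4*, where 5.24% of all genes fell. In DM against GS, *Utf1* and *Lin28a* rose and *Nanog* fell, where 4.37% of all genes rose and 2.32% fell. The 10 fibroblast markers summed to only 318 to 496 in any library, and *Fap* and *Twist2* in GS, *Postn* and *Twist2* in DM and *Fap* in NO were at 0. Of the 5 tested, *Thy1* (log2 fold change 1.47) and *Col1a1* (1.49) rose and *Pdgfrb* (-0.97) fell in NO against GS, *Col1a1* (1.56) rose in NO against DM and *Thy1* (1.70) in DM against GS. The medians of the 5 were -0.32, -0.22 and -0.07 in that order. Of all genes, 13.4% rose and 6.64% fell in NO against GS, 9.01% rose in NO against DM and 4.37% rose in DM against GS. The part of these markers in the histone results was not tested.

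In each medium 1 library stood furthest from the other two for the histone genes. DM replicate 3 was the highest of its medium for 45 of the 61 tested genes, against 40% of all genes. GS replicate 1 was the highest of GS for 36 genes, against 33.1% of all genes, and NO replicate 2 was the lowest of NO for 49 genes, against 37.1%. At the other end, GS replicate 3 was the lowest of GS for 35 genes, against 34.3% of all genes. DM replicate 1 was the lowest of DM for 27 genes, against 28.8%, and NO replicate 3 the highest of NO for 34, against 22.4%. The median log2 distance of a histone gene from the other libraries of its medium was 0.31 in GS replicate 1, 0.60 in DM replicate 3 and -0.78 in NO replicate 2. It was -0.28 in GS replicate 3, -0.51 in DM replicate 1 and 0.47 in NO replicate 3. Results are therefore given with and without GS replicate 1, DM replicate 3 and NO replicate 2, a choice made after seeing the data.

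The departure was largest for H4. Summed over 13 genes, H4 values were 102767, 63631 and 55108 in GS, 54595, 53359 and 173290 in DM and 56460, 29946 and 55359 in NO. The media overlapped, and the values of DM replicates 1 and 2 and of NO replicates 1 and 3 lay within 53359 to 56460. H2B sums, by contrast, were 42641, 43463 and 47422 in GS, 57596, 43025 and 63324 in DM and 33065, 16705 and 35453 in NO, with every NO library below every other.

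**Figure D1:**
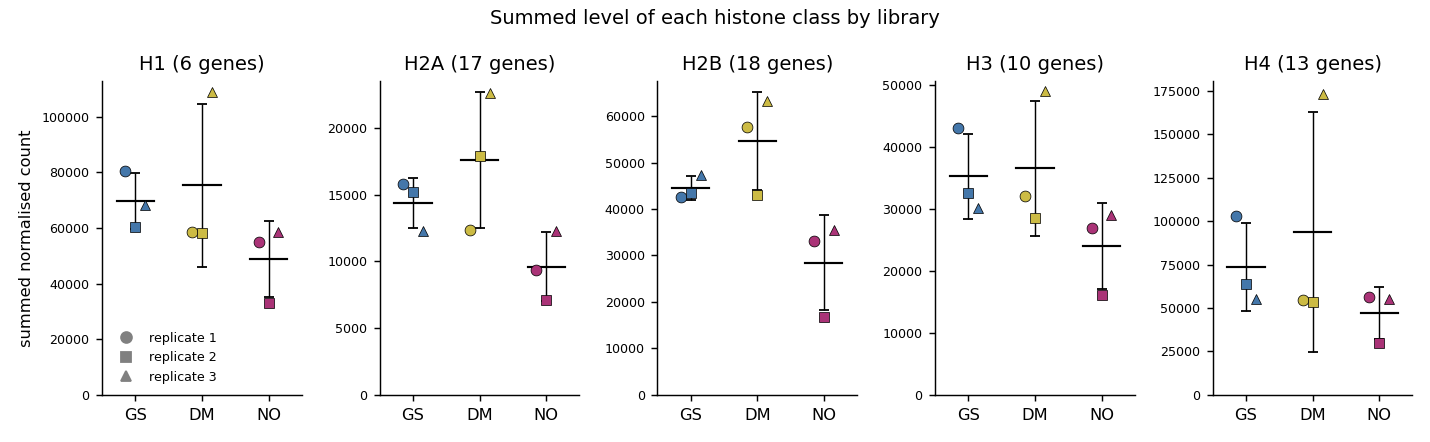
Summed normalised count of each histone class (y axis) in GS, DM and NO. Points are libraries, shaped by replicate number, and lines and bars are the mean and SD of 3 libraries. DM replicate 3 and NO replicate 2 are the extremes in every class, and H4 reaches 173290 in DM replicate 3.

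H1, H2A and H3 sums lay between these patterns. H1 sums were 80288, 60416 and 68147 in GS, 58614, 58229 and 108991 in DM and 54847, 33024 and 58422 in NO. H2A sums were 15770, 15159 and 12271 in GS, 12357, 17880 and 22569 in DM and 9383, 7101 and 12265 in NO. H3 sums were 43032, 32501 and 30183 in GS, 32079, 28533 and 48950 in DM and 26874, 16111 and 29037 in NO. Every NO library was below every GS library for H1, H2A and H3, and below every DM library for H2A alone of the 3. For H2A the margin was narrow, with 12265 in NO replicate 3 against 12271 in GS replicate 3 and 12357 in DM replicate 1.

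The ratio of means of NO to DM was 0.648 for H1, 0.544 for H2A, 0.520 for H2B, 0.657 for H3 and 0.504 for H4. Without NO replicate 2 and DM replicate 3 it was 0.969, 0.716, 0.681, 0.922 and 1.036. H4 thus moved from the lowest ratio to one just above 1, and H2A and H2B kept ratios of about 0.7. The ratio of DM to GS was 1.081 for H1, 1.222 for H2A, 1.228 for H2B, 1.036 for H3 and 1.270 for H4, and without DM replicate 3 and GS replicate 1 it was 0.909, 1.102, 1.107, 0.967 and 0.909.

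The ratio of summed H4 to summed H2B ran from 0.948 in DM replicate 1 to 2.737 in DM replicate 3 and was 2.410 in GS replicate 1. Of the 5 classes, H4 had the largest spread between replicates in GS and DM, and H2A in NO. The median SD of log2 values per gene was 0.53 for H4 in GS, 0.99 in DM and 0.56 in NO, against 0.21, 0.24 and 0.31 over all tested genes. For H2A it was 0.31, 0.57 and 0.66, and for H2B 0.21, 0.46 and 0.55.

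The same libraries also differed in small nucleolar RNA. Small nucleolar RNA took 3.06%, 4.12% and 4.78% of the total in GS, 3.57%, 3.73% and 2.07% in DM and 4.00%, 6.57% and 4.47% in NO. DM replicate 3, with the highest histone sums, had the lowest share, and NO replicate 2, with the lowest histone sums, had the highest. *H2afz*, which encodes the replacement histone H2A.Z from a polyadenylated mRNA outside the clusters, also read 13089, 9760 and 9763 in GS, 8177, 10815 and 20616 in DM and 8540, 4943 and 9579 in NO, with its extremes in the same libraries. Other RNA classes did not all follow. For small nuclear RNA and microRNA, DM replicate 3 lay between the other DM libraries, at 1.073% and 0.111%. NO replicate 2 was the lowest of NO for both, at 1.198% and 0.101%. For RNA of the miscellaneous class, DM replicate 3 was the highest of DM at 1.981%, and NO replicate 2 lay between the others at 1.565%. What links these values to the histone sums was not tested.

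**Figure D2:**
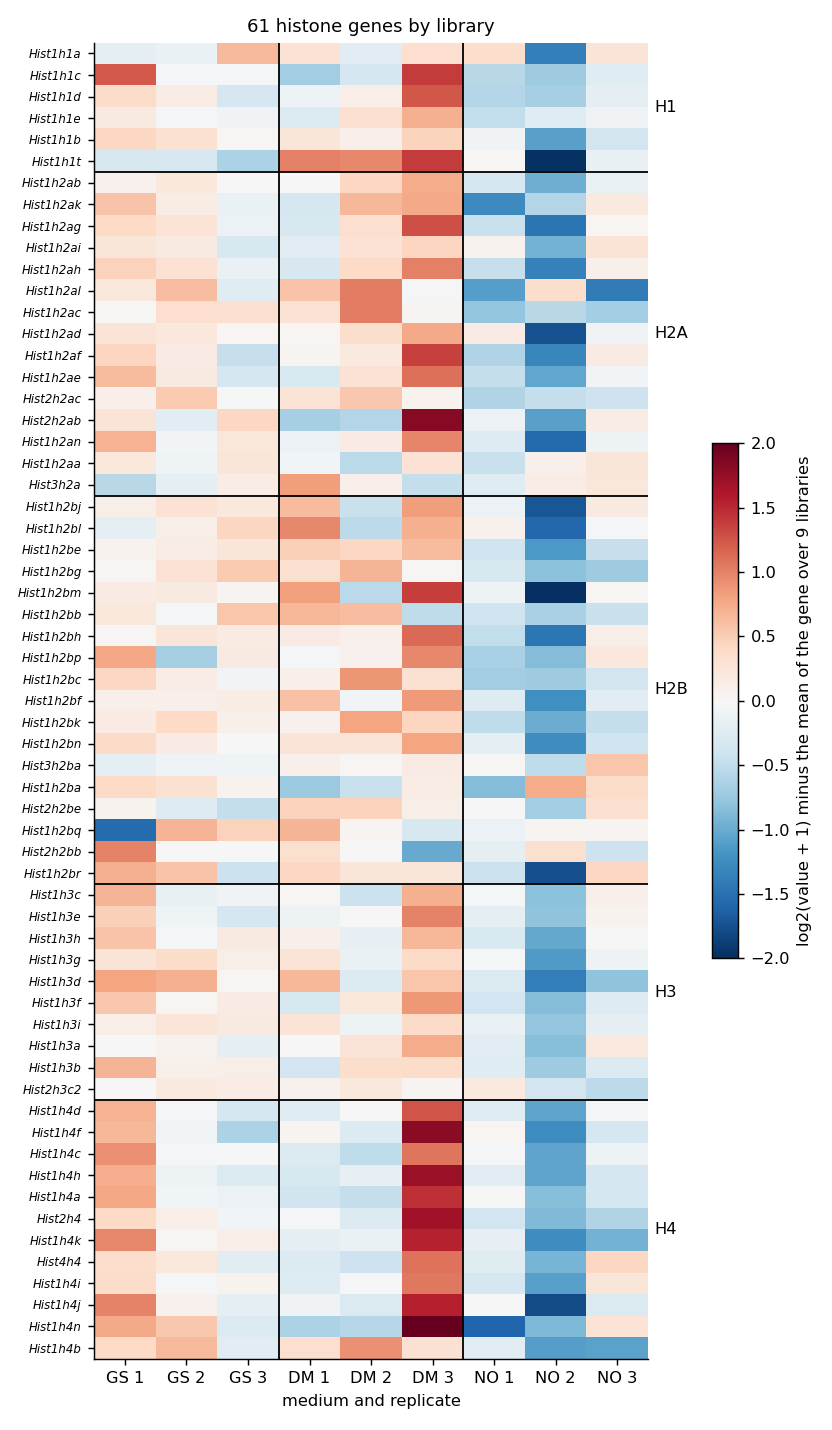
Log2(value + 1) of 61 clustered histone genes minus the mean of the gene (colour, limited to 2 in either direction) in 9 libraries (columns), ordered by class and mean. DM replicate 3 and GS replicate 1 are high for most H4 genes, and NO replicate 2 is low for 49 of the 61 genes.

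The change from GS to DM asks how histone mRNA follows release from the inhibitors into serum. No histone gene was called, a call being an adjusted p under 0.05 with at least a 2-fold change, against 4.20% of all genes (limma, Benjamini-Hochberg adjustment over 18156 genes). None had an adjusted p under 0.05 either, against 6.69% of all genes, and 1 of 61 had an unadjusted p under 0.05, against 19.9%. The median log2 fold change was 0.17, and 11 of the 61 genes were lower in DM, against 50.1% of all genes. By class it was 0.13 for H1, 0.21 for H2A, 0.25 for H2B, -0.02 for H3 and 0.12 for H4. Without DM replicate 3 the median of H4 was -0.41, and with all 3 libraries left out it was -0.17.

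The gene with an unadjusted p under 0.05 was *Hist1h1t*, the testis linker histone H1t. It read 91, 91 and 73 in GS, 230, 223 and 300 in DM and 116, 28 and 102 in NO. DM was above the other media without overlap, whereas GS and NO overlapped. In DM against GS the log2 fold change was 1.55 (adjusted p 0.0537), and without NO replicate 2, whose 28 widened the shared spread, the adjusted p was 0.000409. It was named for its count after its values were seen. The other testis genes, *Hist1h2aa* (H2A) and *Hist1h2ba* (H2B), read 74 to 132 and 34 to 106 in the 9 libraries and passed in no comparison.

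In NO against GS, 10 of 61 histone genes fell at an adjusted p under 0.05, which is 16.4%, where 6.64% of all genes fell. Only *Hist1h3d* and *Hist1h4b* also fell at least 2-fold, 2 of 61 genes or 3.28%, against 1.64% of all genes. No histone gene rose at an adjusted p under 0.05, against 13.4% of all genes. The median log2 fold change was -0.68 over the histone genes, where that of all genes was about 0, and 57 of 61 were lower, against 51.3% of all genes. In 23 of 61 genes all 3 NO libraries lay below all 3 GS libraries, against 18.3% of all genes. The count of 2 was 1 without GS replicate 1, 0 without GS replicate 2, 5 without NO replicate 1 and 1 without NO replicate 3. With GS replicate 1, DM replicate 3 and NO replicate 2 all left out, 2 H2A genes were called. Neither *Hist1h3d* nor *Hist1h4b* was called then, nor any other gene outside H2A. The count of 10 was 5 without GS replicate 1, 2 without GS replicate 2 and 16 without DM replicate 3, which enters through the shared spread. The comparisons of DM and NO with GS share the GS libraries.

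By class, the genes that fell in NO against GS at an adjusted p under 0.05 were 1 of 6 for H1, 2 of 15 for H2A, 5 of 18 for H2B, 1 of 10 for H3 and 1 of 12 for H4. The class medians were -0.45, -0.71, -0.75, -0.61 and -0.67 in the same order. Without the 3 libraries that stood apart they were -0.25, -0.26, -0.38, -0.32 and -0.08, and the median over all 61 genes was -0.27, with 48 lower. Leaving out NO replicate 2 alone gave -0.36.

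*Hist1h3d*, which encodes a core histone H3, had the largest change of any histone gene in NO against GS. It read 4523, 4250 and 2670 in GS, 4137, 2153 and 3830 in DM and 2122, 995 and 1484 in NO. All NO libraries were below all others. The log2 fold change was -1.34 ± 0.31 (SE, n = 3 per medium) against GS with an adjusted p of 0.0114 (limma), and -1.15 ± 0.31 against DM with an adjusted p of 0.0317. The range over the alternatives was 0.00277 to 0.0592 against GS and 0.00662 to 0.145 against DM.

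**Figure D3:**
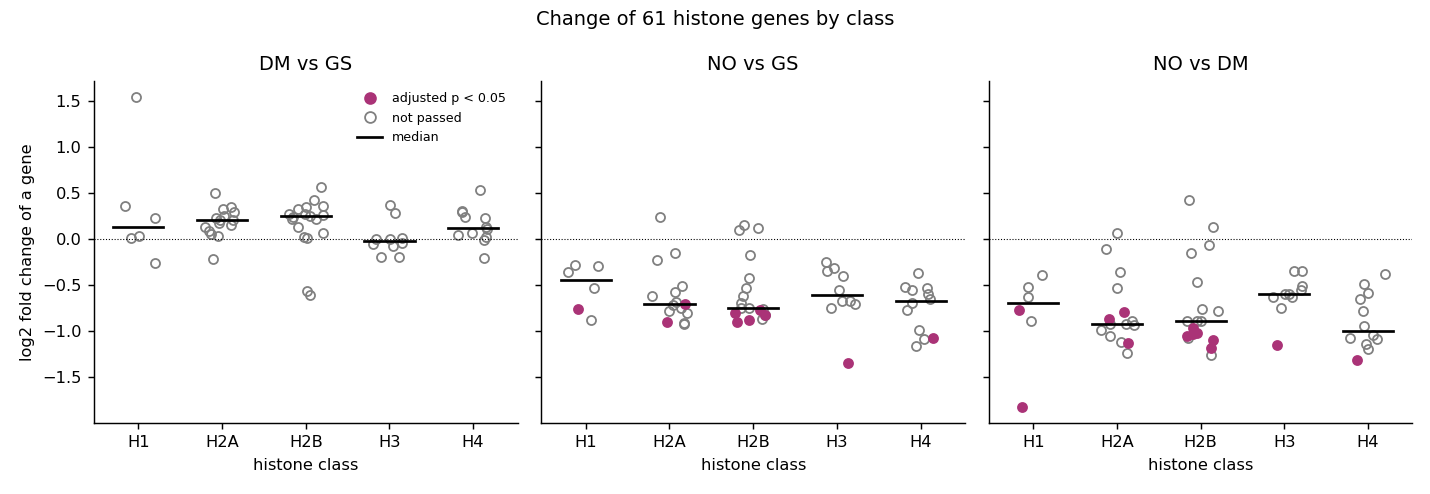
Log2 fold change (y axis) of 61 clustered histone genes by class in DM against GS, NO against GS and NO against DM. Each point is a gene, filled where the adjusted p is under 0.05, and lines are class medians. In both NO comparisons the class medians lie between -0.45 and -1.0, and in DM against GS between -0.02 and 0.25.

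NO against DM asks what the donor added to serum medium. Of the 61 histone genes, 13 fell at an adjusted p under 0.05 (21.3%, against 5.24% of all genes falling), 9 of them at least 2-fold (14.8%, against 1.77%). None rose at an adjusted p under 0.05, against 9.01% of all genes. The median log2 fold change was -0.87, 58 genes were lower, against 49.9% of all genes, and in 16 genes the NO libraries lay below the DM libraries without overlap, against 15.3% of all genes. An F test over the 3 media passed for 13 of 61 genes, against 23.3% of all genes. The genes that fell numbered 2 of 6 for H1, 3 of 15 for H2A, 6 of 18 for H2B, 1 of 10 for H3 and 1 of 12 for H4.

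The count of 9 was 4 without DM replicate 2 and 4 without NO replicate 2. Without DM replicate 3 it was 7 and the median was -0.49. The count of 13 was 8 without DM replicate 2 and 8 without DM replicate 3. With all 3 libraries left out the count of 9 was again 7, from 5 H2A or H2B genes, *Hist1h1t* and *Hist1h4b*. The median was then -0.25, with 47 genes lower. The class medians were -0.70 for H1, -0.92 for H2A, -0.89 for H2B, -0.60 for H3 and -1.0 for H4 with every library, and -0.34, -0.26, -0.37, -0.19 and -0.02 without those 3.

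H2B held the most genes that fell, 6 of 18 tested in NO against DM. The number of H2B genes called there was 5 with every library but 0 without NO replicate 2. It was 5 without DM replicate 3 and 3 with all 3 libraries left out. *Hist1h2be* read 6096, 6459 and 6868 in GS, 8119, 7759 and 8985 in DM and 4404, 2625 and 4221 in NO. The 3 media did not overlap, with DM highest and NO lowest. Log2 fold changes were -1.18 ± 0.18 (SE, n = 3 per medium) in NO against DM and -0.82 ± 0.18 against GS, with adjusted p of 0.00379 and 0.0101 (limma), and the adjusted p stayed under 0.05 in all 23 alternatives of both comparisons. Its annotated exons overlap those of *Hist1h1e* on the same strand, and by the study's counting rule reads in a shared part were left out.

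*Hist1h2bg*, with the octamer printed above, read 4073, 4886 and 5762 in GS, 4986, 6449 and 4091 in DM and 3209, 2266 and 2447 in NO. NO was lowest without overlap, whereas GS and DM overlapped. It changed by -0.96 ± 0.20 (SE, n = 3 per medium) against DM and -0.90 ± 0.20 against GS on the log2 scale, with adjusted p of 0.0112 and 0.0095 (limma). Both stayed under 0.05 in all 23 alternatives, and DM replicate 3 was not the highest but the lowest DM library here.

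*Hist1h2bk*, which also holds the octamer, read 1450, 1712 and 1393 in GS, 1373, 2244 and 1746 in DM and 916, 648 and 934 in NO. *Hist1h2bc* read 2191, 1835 and 1598 in GS, 1771, 3041 and 2030 in DM and 1016, 1004 and 1279 in NO. For both, NO was lowest without overlap. Against DM they changed by -1.09 ± 0.20 and -1.02 ± 0.20 on the log2 scale (SE, n = 3 per medium), with adjusted p of 0.00686 and 0.00977 (limma), under 0.05 in all 23 alternatives. Against GS they changed by -0.88 and -0.77, with adjusted p of 0.0103 and 0.0216, the highest over the alternatives being 0.0504 and 0.0926. Without NO replicate 2 the changes against DM were -0.92 and -0.96.

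*Hist1h2bn* and *Hist1h2bf* also fell in NO against DM, with log2 fold changes of -1.05 and -1.04, adjusted p of 0.0199 and 0.0286, and up to 0.0961 and 0.134 over the alternatives. NO lay below DM and GS without overlap for both, with NO values of 1024, 495 and 889 for *Hist1h2bn* and 1080, 553 and 1104 for *Hist1h2bf*. The H2B genes with most reads did not pass. *Hist1h2bj* read 7322, 8239 and 7809 in GS, 10444, 4919 and 12013 in DM and 6178, 2060 and 7604 in NO, and *Hist1h2bl* read 5800, 7250 and 8997, then 13002, 4656 and 10973, then 7077, 2244 and 6532. DM replicate 2 was low in both, so that DM and NO overlapped. Their log2 fold changes in NO against DM were -0.89 and -0.89, close to the class median, with adjusted p of 0.183 and 0.192.

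**Figure D4:**
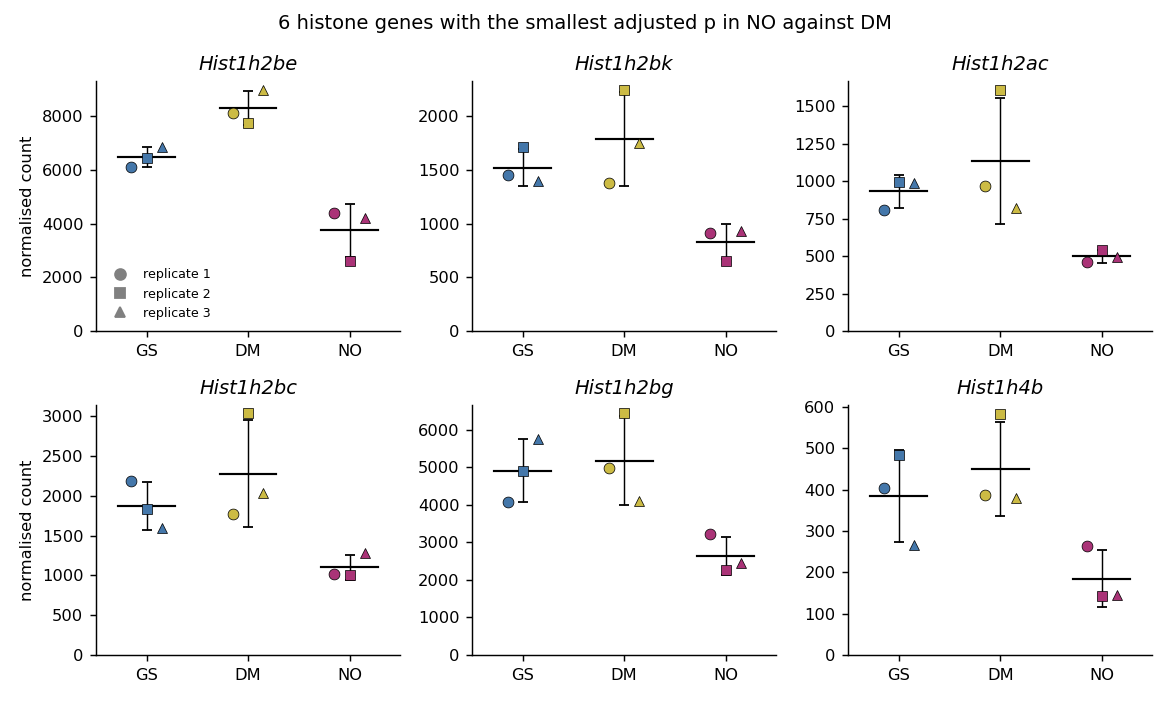
Normalised count (y axis, from 0) of the 6 histone genes with the smallest adjusted p in NO against DM, by medium. Points are libraries, shaped by replicate, and lines and bars are the mean and SD of 3 libraries. In all 6 genes the NO libraries lie below all GS and DM libraries.

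Among H2A genes, *Hist1h2ac* read 809, 999 and 990 in GS, 972, 1612 and 825 in DM and 461, 541 and 494 in NO. NO was lowest without overlap, and here NO replicate 2 was the highest NO library. Log2 fold changes were -1.13 ± 0.22 (SE, n = 3 per medium) against DM and -0.90 ± 0.22 against GS, with adjusted p of 0.00867 and 0.0143 (limma). Against DM it stayed under 0.05 in all 23 alternatives, and with the 3 libraries left out the change was -1.39.

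*Hist2h2ac*, of the chromosome 3 cluster, read 408, 552 and 381 in GS, 462, 557 and 400 in DM and 252, 273 and 285 in NO. The NO libraries lay close together and below all others. The log2 fold change was -0.80 ± 0.18 (SE, n = 3 per medium) against DM and -0.71 ± 0.18 against GS, with adjusted p of 0.0174 and 0.0193 (limma). *Hist1h2ab*, the H2A gene with most reads, read 3675, 4019 and 3452 in GS, 3484, 4649 and 5829 in DM and 2743, 1762 and 3180 in NO, and fell by 0.87 against DM with an adjusted p of 0.0276, which was up to 0.128 over the alternatives. It did not pass against GS, with an adjusted p of 0.0942.

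Some H2A genes varied in another way. *Hist1h2al*, annotated as a processed pseudogene in the release used here, read 1197, 1637 and 785 in DM and 373, 1024 and 305 in NO. NO replicate 2 was by far the highest NO library, opposite to most histone genes. The log2 fold change against DM was -1.24 with an adjusted p of 0.0632, and without NO replicate 2 it was -1.77 with 0.00527. *Hist1h2ak*, second in reads among the H2A genes, read 1212, 2401 and 2587 in DM and 628, 1012 and 1736 in NO, which overlap, with an adjusted p of 0.105.

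Of the H1 genes, *Hist1h1t* and *Hist1h1b* fell in NO against DM. The values of *Hist1h1t* given above correspond to a log2 fold change of -1.83 ± 0.43 (SE, n = 3 per medium; limma adjusted p 0.0188), the largest of any histone gene, and to -1.19 without NO replicate 2. *Hist1h1b* read 9277, 8661 and 7070 in GS, 8271, 7466 and 9458 in DM and 6673, 3279 and 5403 in NO. NO was lowest without overlap, with changes of -0.77 ± 0.23 against DM and -0.75 ± 0.23 against GS and adjusted p of 0.0458 and 0.0384, which were up to 0.172 and 0.129 over the alternatives.

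The H1 genes with most reads differed between libraries more than between media. *Hist1h1a* read 17907, 18759 and 32070 in GS, 25095, 17760 and 25961 in DM and 26074, 7980 and 24451 in NO. *Hist1h1c* read 28702, 11975 and 11963 in GS, 7570, 9798 and 32367 in DM and 8349, 7525 and 10404 in NO. NO overlapped DM in both. In NO against DM the log2 fold changes were -0.40 and -0.63 with adjusted p of 0.535 and 0.397, and the sign turned without NO replicate 2 for *Hist1h1a* and without DM replicate 3 for *Hist1h1c*, at 0.16 and 0.01.

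Among the H4 genes only *Hist1h4b* fell. It read 405, 483 and 265 in GS, 388, 582 and 380 in DM and 264, 143 and 146 in NO. NO was lowest without overlap, by a single count between its highest library and GS replicate 3. The log2 fold change was -1.32 ± 0.29 (SE, n = 3 per medium) against DM and -1.07 ± 0.29 against GS, with adjusted p of 0.0147 and 0.0232 (limma), the highest over the alternatives being 0.0589 and 0.0985. Unlike the other 11 tested H4 genes, it was not highest in DM replicate 3. In NO against DM it was called without DM replicate 3, without NO replicate 2 and without all 3 libraries. In NO against GS no H4 gene was called without NO replicate 2 or without all 3 libraries.

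The H4 genes with most reads, *Hist1h4d* and *Hist1h4f*, varied with the libraries. *Hist1h4d* read 17538, 10735 and 8463 in GS, 9132, 10953 and 25854 in DM and 9140, 5212 and 10649 in NO. *Hist1h4f* read 12980, 7893 and 5271 in GS, 8468, 6734 and 28492 in DM and 8386, 3439 and 6388 in NO. DM and NO overlapped in both, with every library and without DM replicate 3 and NO replicate 2. In NO against DM their log2 fold changes were -0.78 and -1.05 with adjusted p of 0.198 and 0.182.

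Among the H3 genes, *Hist1h3c* read 10373, 5870 and 6218 in GS, 6629, 4808 and 10632 in DM and 6331, 3665 and 7013 in NO. *Hist1h3e* read 7654, 5168 and 4349 in GS, 5114, 5480 and 10972 in DM and 4863, 3150 and 5810 in NO. These were the H3 genes with most reads, and the media overlapped in both. Their log2 fold changes in NO against DM were -0.35 and -0.60, with adjusted p of 0.488 and 0.219, so that *Hist1h3d* was the only one of the 10 H3 genes to pass.

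By position, the medians in NO against DM were -0.91 for 20 tested genes of the block of chromosome 13 with the lower coordinates, which holds *Hist1h2bk* and *Hist1h1b*, and -0.87 for 31 of the block that holds *Hist1h2bg* and *Hist1h4b*. They were -0.50 for 6 genes on chromosome 3 and -0.09 for *Hist3h2a* and *Hist3h2ba* on chromosome 11, which read 20 to 54 and 213 to 450. *Hist4h4*, alone on chromosome 6, had -0.38, and *Hist1h2al*, apart from both blocks of chromosome 13, had -1.24. By transcript structure, the 38 tested genes with a stem-loop match had a median of -0.89, with 7 called, and the 23 without had -0.63, with 2 called. Genes with at most 100 annotated bases after the stem-loop had a median of -0.93 (17 tested) and those with more had -0.78 (21 tested). These differences were not tested.

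Near-identical copies limit the counts, since reads that align to more than 1 place were excluded by the authors. Of the 64 genes, 38 had more than 50% of their 75-base windows found in no other gene's transcript. Those 38 had a median of -0.77 in NO against DM with 5 called, and the 23 tested genes at or under 50% had -0.89 with 4 called. *Hist1h2bk*, *Hist1h2bn* and *Hist1h4b* were unique over 27.4%, 27.7% and 26% of windows, and *Hist1h2ac* and *Hist1h2be* over 88.9% and 85.6%. Exons of 21 of the genes overlap another annotated gene, and use of the strand in counting was not stated.

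Genes that act around the histone genes were followed as lists. Of 42 genes of DNA replication and S phase, none was called in any comparison, and 4 in NO against GS and 2 in NO against DM fell at an adjusted p under 0.05, where 6.64% and 5.24% of all genes fell. Their medians were 0.01 in DM against GS, -0.22 in NO against GS and -0.28 in NO against DM, with 37 of 42 lower in both NO comparisons, against 51.3% and 49.9% of all genes. Those that fell were *Dut*, *Gins1*, *Uhrf1* and *Rfc1* against GS (log2 fold changes -0.73, -0.70, -0.56 and -0.38) and *Lig1* and *Ung* against DM (-0.64 and -0.62), named here after their values were seen. Of 20 mitosis genes none passed in any comparison, with medians of -0.01, -0.02 and 0.02. Without the 3 libraries that stood apart, the S-phase medians were -0.17 in NO against GS and -0.16 in NO against DM, those of the mitosis genes -0.04 and 0.03, and those of the histone genes, given above, -0.27 and -0.25. The difference between the lists was not tested.

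Among 11 activators of histone transcription, *Ccne1*, the cyclin E1 that with CDK2 phosphorylates NPAT, fell by 0.82 in NO against DM with an adjusted p of 0.0402. No other gene of this list passed in any comparison, and 5.24% of all genes fell in NO against DM. *Slbp*, the stem-loop binding protein, read 2377, 2687 and 2934 in GS, 3243, 2656 and 2233 in DM and 2509, 1974 and 2328 in NO. The media overlapped, and its log2 fold changes were 0.01 in DM against GS, -0.23 in NO against GS and -0.25 in NO against DM, with adjusted p of 0.98, 0.333 and 0.325. *Npat*, *Casp8ap2*, *Lsm10* and *Lsm11*, which act in transcription or 3′ processing, had log2 fold changes between -0.43 and 0.04 over the 3 comparisons and a lowest adjusted p of 0.129.

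Among 21 genes of 3′ processing, 6 fell and 1, *Zfp473*, rose in NO against GS, while 2 fell in NO against DM and none passed in DM against GS. *Zfp473*, which encodes a protein of the histone U7 snRNP machinery, rose by 0.50. The only one called was *Snrpf*, a Sm ring protein, which read 21, 25 and 42 in DM and 8, 10 and 10 in NO, a log2 fold change of -1.50 (adjusted p 0.0233) at a low level. Of 19 histone mRNA decay genes 4 fell in NO against GS and 1, *Zcchc11*, rose in NO against DM. Of 22 histone chaperone and assembly genes 2 fell in NO against GS and 3 in NO against DM, among them *Chaf1b*, the CAF-1 subunit, at -0.76 with an adjusted p of 0.0249. For each of these 3 lists the share of all genes that fell was 6.64% in NO against GS and 5.24% in NO against DM. The share of all genes that rose was 13.4% and 9.01% in the same order.

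**Figure D5:**
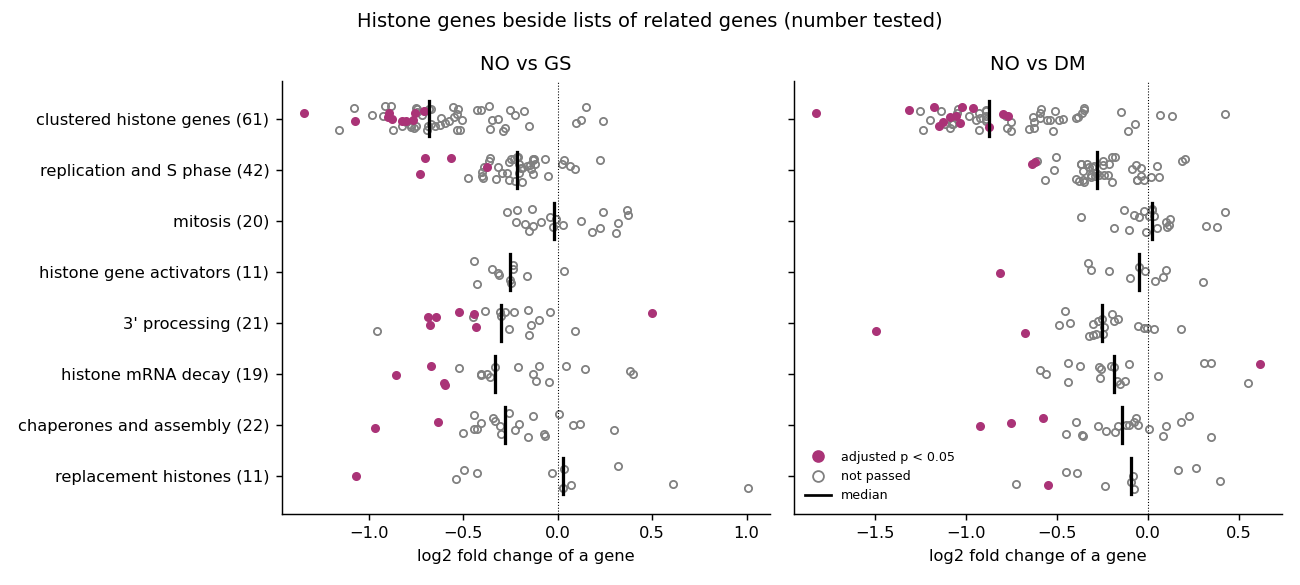
Log2 fold change (x axis) of the clustered histone genes and of lists of related genes (rows, number tested in brackets) in NO against GS and NO against DM. Each point is a gene, filled where the adjusted p is under 0.05, and bars are medians. The histone median is -0.68 and -0.87, and the medians of the lists lie between -0.33 and 0.03.

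The listed replacement histones, encoded by genes outside the clusters, differed among themselves. Of 11 tested, 1 rose and 2 fell in DM against GS at an adjusted p under 0.05, where 4.37% of all genes rose and 2.32% fell. In each NO comparison 1 fell, where 6.64% of all genes fell in NO against GS and 5.24% in NO against DM. Medians were 0.17, 0.03 and -0.10 in DM against GS, NO against GS and NO against DM. *H2afy*, which encodes macroH2A1, read 2871, 2183 and 2080 in GS, 1167, 1143 and 1256 in DM and 1157, 1121 and 1092 in NO. GS was above both other media without overlap, with log2 fold changes of -0.99 in DM and -1.07 in NO against GS and adjusted p of 0.00158 and 0.00093. *H2afy2*, which encodes macroH2A2, also fell in DM against GS (log2 fold change -0.69, adjusted p 0.0412). *H1fx*, a linker variant, rose in DM against GS by 1.25 with an adjusted p of 0.0483, which was up to 0.232 over the alternatives.

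*H1f0*, the linker histone H1.0 of slowly dividing cells, read 796, 634 and 610 in GS, 886, 873 and 1176 in DM and 673, 621 and 691 in NO. DM lay above the other media, and NO against DM gave -0.55 with an adjusted p of 0.0417, which was 0.0559 with the replicate number as a block. *H3f3a* and *H3f3b*, the genes of H3.3, had log2 fold changes of -0.45 and 0.40 in NO against DM, with adjusted p of 0.14 and 0.0892, and *H2afz* had -0.72 with 0.149. None of these 3 genes passed in any comparison.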

How the data were processed

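Each deposited value is a score, a read count of the gene that the authors divided by a DESeq2 size factor and rounded to a whole number. Raw counts were not analysed here. Per the methods of the study and the submitters' processing notes, reads were trimmed with Reaper, aligned to GRCm38 with STAR 2.4.0a and counted over exons with featureCounts 1.4.5-p1, ambiguous and multi-mapping reads being excluded. A column summing the samples was not used.

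The histone genes and gene lists were chosen with earlier results of these data known. Values were analysed as log2(value + 1) with limma 3.58.1 in R 4.3.3 (all 9 libraries, 3 media, no covariate, mean-variance trend, two-sided, Benjamini-Hochberg over 18156 genes with a mean above 5). A call needed an adjusted p under 0.05 and at least a 2-fold change, as in the study. The planned count model was not used because the values are not raw counts, and whole reads could not be recovered uniquely where 1 read was worth less than 1. The fit and the depth estimate were tested on simulated data. Fold changes of low genes are understated, and values are not per length.

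Genes named were, per comparison, the 6 histone genes with the smallest adjusted p under 0.05, the 2 with the highest mean in each class, list genes past both thresholds, and *Slbp*, *Npat*, *Casp8ap2*, *Lsm10*, *Lsm11*, *H2afz*, *H3f3a*, *H3f3b* and *H1f0*. Other genes that passed were named after their values were seen. Of the histone genes, 57 were matched to GENCODE M21 by identifier and 7 by symbol. The identifier of *Hist2h2bb* belongs in that release to *Gm42743*, a lincRNA. Its entries in the counts of stem-loop matches, unique windows and exon overlaps are therefore those of *Gm42743*. The GC content used in an alternative was known for 98.2% of genes.

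Replicate numbers recur in each medium in the labels. Deviations of same-numbered libraries from their medium means correlated at 0.159, 0.167 and 0.296 between NO and DM. These deviations correlated at -0.178, 0.022 and -0.232 between DM and GS and at -0.046, 0.05 and -0.106 between NO and GS. Libraries of different numbers were not compared in this way, and no batch is stated, so whether the numbers pair libraries is not known. The number was left out of the main fit and used as a block only in alternatives.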

Additional observations from a re-analysis of the deposited data

How the results depend on the processing

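The direction of every histone gene that passed held under all alternatives run for it. With the replicate number as a block, 12 histone genes were called in NO against DM, 2 in NO against GS, 0 in DM against GS and 17 by the F test. The adjusted p of *H1f0* in NO against DM (0.0559) and of *H1fx* in DM against GS (0.0506) rose above 0.05 with the block. Among the genes followed 1 by 1 through the alternatives, no other adjusted p crossed 0.05 with the block. Among the histone genes that passed, 5 of 13 in NO against DM and 2 of 10 in NO against GS stayed under 0.05 in every alternative.

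The count called in NO against GS, 2 in the report, was 10 with no minimum fold change, 0 at a log2 fold change of 2, 1 without the mean-variance trend, with equal totals, with a length correction, among the 38 mostly unique genes, or without GS replicate 1 and DM replicate 3 together, 5 with a GC correction and 7 with that and the block. That in NO against DM, 9 in the report, was 5 with only the 6 libraries compared, without the trend or among mostly unique genes, and 0 at a log2 fold change of 2. That in DM against GS was 1 with only the 6 libraries, a pseudocount of 5, equal totals, the length correction or all 3 libraries out. The F test gave 7 without the trend, 8 among mostly unique genes, 21 with GC correction and block, and 7 without GS replicate 1 and DM replicate 3. Leaving out 1 library gave 0 to 1 in DM against GS, 0 to 5 in NO against GS and 4 to 11 in NO against DM. The GC correction moved the median of the histone genes in DM against GS from 0.17 to -0.01. Counted by adjusted p alone, NO against GS gave 6 without the trend, 17 with the GC correction and 22 with that and the block (10 in the report), and NO against DM gave 7 without the trend or with only the 6 libraries and 8 among mostly unique genes (13 in the report). The causes were not tested.

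Class sums as log2 ratios changed as follows. For H4, leaving out 1 library gave -0.45 to 0.66 in DM against GS and -1.27 to -0.19 in NO against DM, and leaving out GS replicate 1 and DM replicate 3 gave -0.19 in NO against DM. Leaving out all 3 libraries gave -0.17 for H3 and -0.087 for H4 in NO against GS, and -0.045 for H1, -0.12 for H3 and 0.051 for H4 in NO against DM. Signs of genes that did not pass also turned. *Slbp* in DM against GS was -0.014 with the length correction and -0.13 to 0.14 when 1 library was left out. In NO against DM, leaving out 1 library gave -0.70 to 0.16 for *Hist1h1a* and -1.04 to 0.011 for *Hist1h1c*, and leaving out all 3 gave 0.26, 0.11, 0.24 and 0.0059 for *Hist1h1a*, *Hist1h1c*, *Hist1h3c* and *Hist1h3e*. *Hist1h1c* was 0.011 without GS replicate 1 and DM replicate 3. The fit assumes that all media vary alike, and which libraries shared a sequencing chip is not given in the labels.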
